A study of Mus musculus with 28 samples.

Results

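Transcripts of 7 subunits of the GABA-A receptor were followed across mouse brain tissue: the α subunit genes *Gabra2*, *Gabra3*, *Gabra4* and *Gabra5*, the β subunit genes *Gabrb1* and *Gabrb2*, and the γ subunit gene *Gabrg1*. They were taken by gene symbol, by a rule that uses no measured value although earlier results of these data were known, and are 7 of 19 rows for subunits of this receptor and 7 of 23038 genes in the deposited tables. The 28 RNA-seq libraries used here came from dissected tissue of mice with either *Nova1* genotype, wt/wt or hu/hu: midbrain before birth (embryonic stage E18.5, 6 libraries of each genotype), midbrain at postnatal stage P21 (4 of each) and cortex at that later stage (4 of each). All mice were backcrossed to C57BL/6J and were siblings from heterozygous crosses. *Nova1* hu/hu mice carried on both alleles a knock-in that places valine, the residue of modern humans, at an isoleucine of NOVA1, a neuronal RNA-binding protein that regulates splicing, together with silent base changes for genotyping; *Nova1* wt/wt mice had the mouse allele. Whether midbrain and cortex at P21 came from the same animals is not given in the labels, and cerebellum was not analysed here.

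GABA-A receptors are pentameric chloride channels opened by γ-aminobutyric acid (GABA), the main inhibitory transmitter of the brain. GABA binds where an α meets a β subunit. A γ subunit, where present, can help to hold receptors at synapses. It can also form the benzodiazepine site with its α neighbour, depending on which subunits these are. The α subunit sets much of a receptor's kinetics, drug response and place in the membrane, and the α and β subunits that neurons use are known to be exchanged as the brain matures.

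*Gabrg1* (Entrez 14405), *Gabra2* (14395), *Gabra4* (14397) and *Gabrb1* (14400) lie in that order within 1.4 megabases of chromosome 5 (mm10, which is GRCm38), at chr5:70751047-70842617, chr5:70958392-71095849, chr5:71569734-71658308 and chr5:71657921-72149572 in the RefSeq annotation. The first 3 are on the minus strand and *Gabrb1* is on the plus strand, head to head with *Gabra4*. *Gabra5* (110886) is on chromosome 7 (chr7:57407669-57591016, minus strand), *Gabrb2* (14401) on chromosome 11 (chr11:42419515-42632591, plus strand) and *Gabra3* (14396) on the X chromosome (chrX:72432676-72656919, minus strand). The RefSeq genes *Gabra4* and *Gabrb1* overlap by 388 bases at their 5′ ends, and their GENCODE exons share 46 bases of 6083 and 13838. Whether strand was used in counting is not given in the sources used here, so reads in those bases could belong to either gene.

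Bases upstream of annotated starts of the 4 chromosome 5 neighbours are shown. The reason is that these genes stand side by side and differed in how their transcripts changed with age and region. Each stretch is read 5′ to 3′ on the strand of its gene from the RefSeq promoter windows of GRCm38.p6, with the transcribed part left out. The stretches are chr5:70842618-70842867 (minus strand) for *Gabrg1*, chr5:71095850-71096099 (minus) for *Gabra2*, chr5:71658364-71658558 (minus) for *Gabra4* and chr5:71699682-71699931 (plus) for the downstream start of *Gabrb1*. The *Gabra4* stretch was shortened to 195 bases so that it stops before an exon of *Gabrb1*. This leaves out the bases nearest the *Gabra4* start. The *Gabrb1* stretch shares bases with an exon of the antisense transcript Gm38562. The window at the upstream start of *Gabrb1*, beside *Gabra4*, is not printed, since only 53 of its bases lie before an exon of *Gabra4*. Capitals mark matches on either strand (and so also the reverse complement) to TATAAA for the TATA box, to CCAAT for the box of that name, to GGGCGG for the GC box and to TGACGTCA for the cyclic AMP response element.
Gabrg1: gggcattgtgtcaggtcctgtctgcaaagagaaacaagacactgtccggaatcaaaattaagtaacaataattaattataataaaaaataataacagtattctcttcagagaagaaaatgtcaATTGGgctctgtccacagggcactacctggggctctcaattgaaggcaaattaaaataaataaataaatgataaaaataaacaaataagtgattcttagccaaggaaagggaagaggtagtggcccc
Gabra2: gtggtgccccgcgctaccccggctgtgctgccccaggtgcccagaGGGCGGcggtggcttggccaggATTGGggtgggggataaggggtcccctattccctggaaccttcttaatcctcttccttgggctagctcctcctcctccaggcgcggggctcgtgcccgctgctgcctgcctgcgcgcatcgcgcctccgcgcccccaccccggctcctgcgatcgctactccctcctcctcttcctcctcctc
Gabra4: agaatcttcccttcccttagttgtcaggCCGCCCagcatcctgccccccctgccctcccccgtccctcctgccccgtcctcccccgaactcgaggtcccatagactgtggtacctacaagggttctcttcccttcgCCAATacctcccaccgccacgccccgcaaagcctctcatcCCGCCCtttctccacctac
Gabrb1: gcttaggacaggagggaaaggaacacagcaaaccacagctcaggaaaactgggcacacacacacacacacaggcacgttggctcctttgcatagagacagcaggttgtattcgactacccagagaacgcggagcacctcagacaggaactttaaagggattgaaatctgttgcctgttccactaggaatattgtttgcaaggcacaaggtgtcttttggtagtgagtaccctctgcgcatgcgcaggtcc

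These stretches differed in composition. G and C made up 35.6% of the *Gabrg1* stretch, which held 1 CG dinucleotide, while the *Gabra2* stretch held 18 CG dinucleotides. The *Gabra4* stretch was 63.6% G and C with 10 CG dinucleotides in 195 bases, and that of *Gabrb1*, at its downstream start, was 50.8% with 6. The 53 bases kept from the window at the upstream *Gabrb1* start were 67.9% G and C with 2 CG dinucleotides. Over 32851 windows of 250 upstream bases the median was 52.4% with 6 CG dinucleotides. The *Gabra2* stretch held 1 CCAAT and 1 GGGCGG match, the *Gabra4* stretch 1 and 2, the *Gabrg1* stretch 1 and 0, and that of *Gabrb1* held neither. CCAAT was found in 33.8% of all windows and GGGCGG in 32.7%. TATAAA, found in 12.4% of all windows, and TGACGTCA, found in 1.55%, were in none of the 4 stretches. The bases left out next to the *Gabra4* start were not searched. A match is a description of the letters only.

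Total counts per library ranged from 18550922 to 45134998, and each of the 7 genes had at least 444 counts in every library. Levels between genes are given as TPM, the deposited counts per exon base scaled to the same sum in every library, so they depend on the exon lengths in the authors' gene models. These were 1860 bases for *Gabrb1*, against 13838 in GENCODE, 3293 for *Gabra2*, against 7640, and 9680 for *Gabrb2*, against 6360. The tissue labels stood against their markers. The summed TPM of 5 cortical genes was 204 to 232 in cortex and 3.77 to 5.21 in P21 midbrain, and that of 6 midbrain genes was 10.5 to 20.8 in cortex and 161 to 198 in P21 midbrain. At E18.5 the midbrain genes summed to 112 to 129 TPM and the cortical genes to 16.6 to 25.3. *Cbln3*, a marker of cerebellar granule cells, ranged from 0.651 to 7.04 TPM in P21 midbrain and was above 5 TPM in 2 *Nova1* wt/wt libraries, numbers 2 and 4. *Nova1* itself was at 98.4 to 126 TPM in E18.5 midbrain, 45.7 to 52.7 TPM in P21 midbrain and 23.0 to 25.5 TPM in cortex, with overlapping genotypes in each, which does not check the genotype because the edit changes a codon.

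In E18.5 midbrain *Gabra3* was the highest of the 7 transcripts, at 106 ± 7.88 TPM (SD, n = 12, both genotypes), followed by *Gabra5* at 74.0 ± 4.29. Below them came *Gabrb2* at 53.8 ± 4.53, *Gabrb1* at 43.3 ± 3.87, *Gabra2* at 29.4 ± 1.89 and *Gabrg1* at 24.8 ± 2.66. *Gabra4* was the lowest at 12.5 ± 0.738. The library ranges of *Gabrb2* and *Gabrb1* overlapped, although *Gabrb2* was the higher in 12 of 12 libraries, and so did those of *Gabra2* and *Gabrg1* (higher in 11 of 12). All other neighbours in this order were separated.

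In P21 midbrain the order was different. *Gabrb2* at 68.1 ± 5.43 TPM (SD, n = 8) and *Gabra3* at 66.0 ± 3.28 shared the top, with *Gabrb2* the higher in 4 of 8 libraries. *Gabrb1* at 43.7 ± 4.53, *Gabra4* at 35.9 ± 3.02 and *Gabra5* at 32.5 ± 1.998 followed with ranges that overlapped from each to the next. *Gabra2* at 23.0 ± 0.775 and *Gabrg1* at 18.1 ± 1.37 stood apart below them.

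In P21 cortex *Gabra5* led at 80.7 ± 3.06 TPM (SD, n = 8), with *Gabra3* at 74.7 ± 3.86, *Gabrb2* at 65.0 ± 3.96 and *Gabrb1* at 59.6 ± 3.04 in a chain of overlapping ranges. *Gabra5* was nevertheless above *Gabra3*, and *Gabra3* above *Gabrb2*, in 8 of 8 libraries. *Gabra4* at 47.6 ± 2.13, *Gabra2* at 39.0 ± 2.28 and *Gabrg1* at 9.31 ± 0.521 were separated from their neighbours and from each other.

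**Figure D1:**
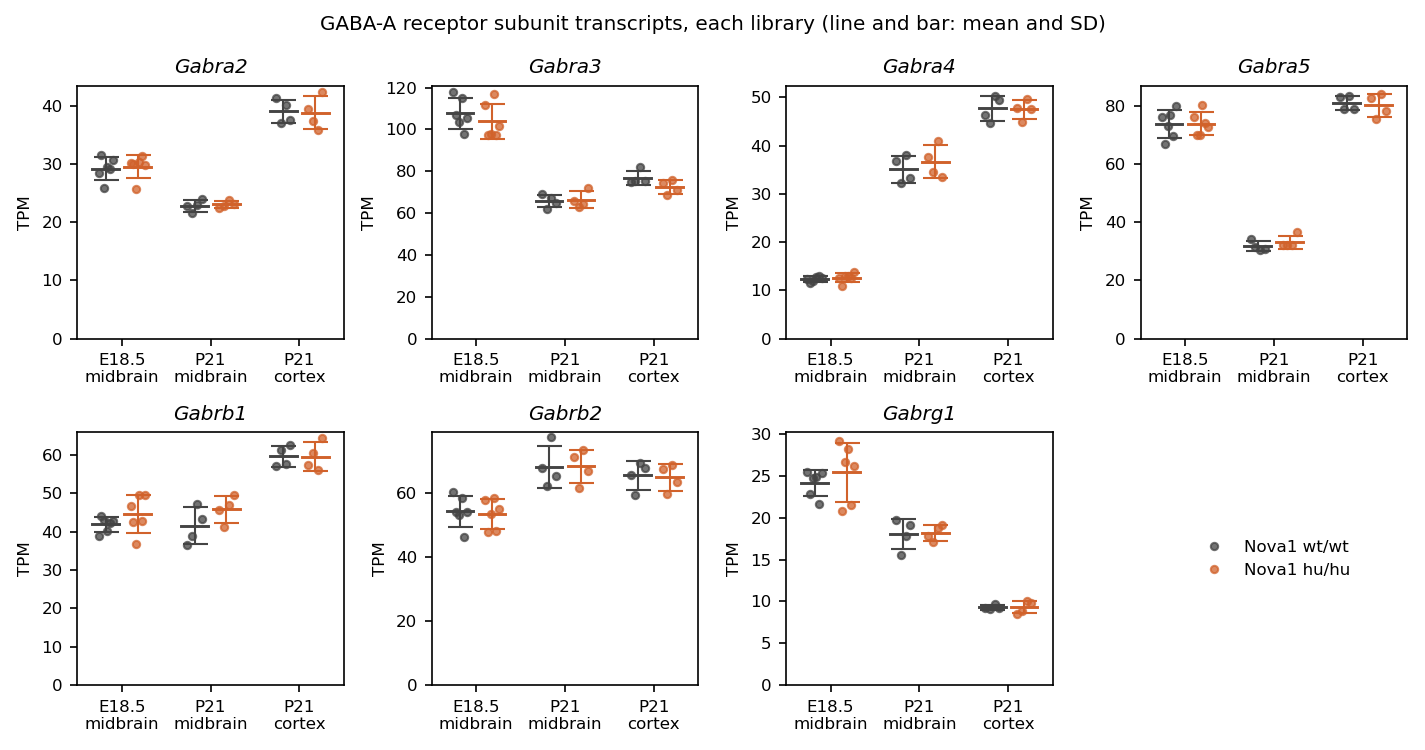
TPM (vertical axis, linear from 0) of the 7 subunit transcripts in each library, by tissue and age on the horizontal axis, with *Nova1* wt/wt in grey and *Nova1* hu/hu in orange; the long line is the group mean and the bar its SD. *Gabra4* rose from 10.98 to 13.8 TPM in E18.5 midbrain to 32.2 to 41.0 in P21 midbrain, *Gabra5* was at 30.6 to 36.6 TPM in P21 midbrain and at 67.1 TPM or more elsewhere, and the genotypes overlapped in every panel.

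To ask how the transcripts changed as the midbrain matured, P21 was compared with E18.5 over 20 libraries with genotype as a covariate in edgeR's quasi-likelihood test. All 7 passed the threshold (p under 0.05 and adjusted p under 0.1), 3 of them higher and 4 lower at P21. Most genes did so as well: 85.6% of the 16330 genes tested were called, 42.4% higher and 43.3% lower, so that passing the threshold says little about these 7. With the TMM factors of the main fit, a change of at least 2-fold was reached by 1 of 7, against 30.6% of all genes. The median absolute log2 fold change was 0.48 over the 7 and 0.62 over all genes.

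*Gabra4*, which encodes an α subunit found largely in receptors outside synapses, rose most. In E18.5 *Nova1* wt/wt midbrain it was at 11.5 to 12.9 TPM with a median of 12.5, and in *Nova1* hu/hu midbrain at 10.98 to 13.8 TPM with a median of 12.7. At P21 the *Nova1* wt/wt libraries held 36.8, 32.2, 38.1 and 33.3 TPM and the *Nova1* hu/hu libraries 37.6, 34.5, 41.0 and 33.4 TPM. Every P21 library was above every E18.5 library. The rise was 3.31-fold (log2 fold change 1.73, SE 0.050, adjusted p = 3.04e-21).

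*Gabra5*, whose product is best known for tonic inhibition in hippocampus, fell most. It was at 67.1 to 80.3 TPM (median 74.7) in *Nova1* wt/wt midbrain at E18.5 and 70.001 to 80.5 TPM (median 73.5) in *Nova1* hu/hu midbrain of that age. The P21 values were 34.3, 31.6, 30.6 and 30.7 TPM in *Nova1* wt/wt and 32.2, 32.1, 32.1 and 36.6 TPM in *Nova1* hu/hu libraries, all under the lowest E18.5 library. With TMM factors the log2 fold change was −0.99 (SE 0.048, adjusted p = 2.58e-16), just short of a 2-fold fall. It was −1.02 in *Nova1* wt/wt and −0.93 in *Nova1* hu/hu libraries alone. Other scalings took the fall past 2-fold, to −1.14 with library totals and −1.16 on the log2(TPM + 1) scale.

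*Gabra3*, an α subunit gene prominent in brainstem and midbrain monoamine nuclei and in the embryonic brain, also fell. Its 12 E18.5 libraries spanned 97.5 to 118 TPM and its 8 P21 libraries 62.2 to 72.1 TPM, with no overlap. The log2 fold change was −0.48 (SE 0.049, adjusted p = 1.34e-09). As a ratio within each library, *Gabra3* to *Gabra4* fell from 8.51 ± 0.748 (SD, n = 12) to 1.85 ± 0.171 (n = 8).

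*Gabra2*, the α subunit gene of many axon initial segment synapses, fell the least of the α genes. Its TPM went from 25.7 to 31.6 at E18.5 to 21.6 to 24.0 at P21, again without overlap. On the TMM scale the log2 fold change was only −0.15 (SE 0.047, adjusted p = 0.00399), and in *Nova1* hu/hu libraries alone it was −0.13 with an adjusted p of 0.109, past the threshold no longer.

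The β subunit genes did not fall. *Gabrb2*, which encodes the most widespread β subunit of the adult brain, was at 46.2 to 60.1 TPM at E18.5 and 61.6 to 77.2 TPM at P21, and its log2 fold change was 0.54 (SE 0.057, adjusted p = 1.90e-09). *Gabrb1* was at 36.8 to 49.6 TPM at E18.5. Its P21 values were 36.6, 38.8, 47.4 and 43.4 TPM in *Nova1* wt/wt and 45.7, 41.2, 47.0 and 49.5 TPM in *Nova1* hu/hu libraries, so the ages overlapped throughout. With TMM factors it was called higher at P21 by 1.16-fold (log2 fold change 0.21, SE 0.061, adjusted p = 0.00240).

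That call did not survive another scaling. With library totals in place of TMM factors the log2 fold change of *Gabrb1* was 0.057 (adjusted p = 0.348), and on the log2(TPM + 1) scale with limma it was 0.010 (adjusted p = 0.862). Both scalings also moved the median of all genes, from −0.015 with TMM factors to −0.17 and −0.18, and the share of calls that were higher at P21 from 49.5% to 41.5% and 39.4%. The other 6 kept their direction and their call under both. *Gabra2* and *Gabrg1* then fell further, with log2 fold changes of −0.31 and −0.41 by library totals, and *Gabra5* passed a 2-fold fall under both scalings.

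*Gabrg1*, a γ subunit gene of limited regional range, was at 20.8 to 29.2 TPM at E18.5 and at 19.8, 15.6, 17.8 and 19.2 TPM in *Nova1* wt/wt and 17.8, 17.1, 18.8 and 19.2 TPM in *Nova1* hu/hu midbrain at P21. The highest P21 value was still under the lowest E18.5 value. The log2 fold change was −0.25 (SE 0.063, adjusted p = 0.000753). The 4 chromosome 5 neighbours therefore moved in different directions with age, from −0.25 for *Gabrg1* to 1.73 for *Gabra4*, while their summed TPM was 110 ± 6.37 at E18.5 and 121 ± 7.25 at P21.

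**Figure D2:**
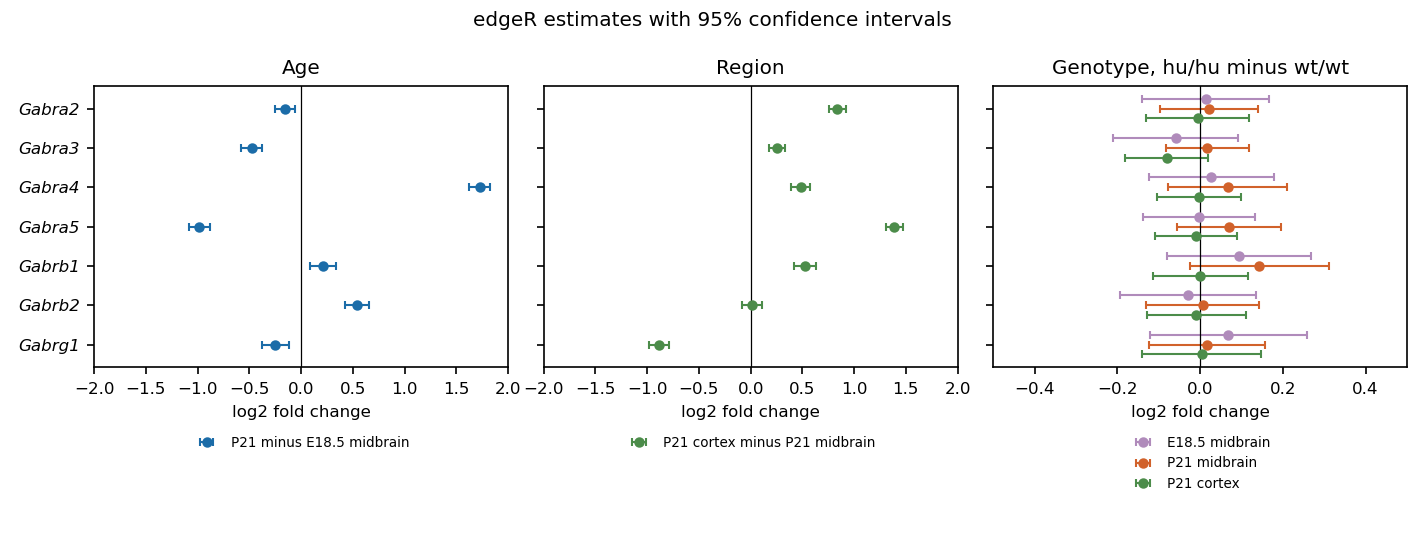
log2 fold changes (horizontal axes, narrower in the right panel) from edgeR with 95% confidence intervals for P21 minus E18.5 midbrain, P21 cortex minus P21 midbrain, and *Nova1* hu/hu minus wt/wt in each tissue. With age *Gabra4* stood at 1.73 and *Gabra5* at −0.99, between regions *Gabra5* stood at 1.39 and *Gabrg1* at −0.88, and every genotype interval crossed 0.

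Cell types changed at the same time. The summed TPM of 4 oligodendrocyte markers was 44.8 to 60.9 at E18.5 and 14584 to 16726 in P21 midbrain, and that of 4 markers of dividing progenitors 121 to 145 and 9.71 to 13.8. Neuronal markers rose from 1320 to 1474 TPM to 2905 to 3181 TPM, and astrocyte markers from 397 to 569 to 834 to 890 TPM. None of the listed markers was at 0 in all libraries of an age. In bulk tissue fewer cells of a type and less RNA per cell cannot be told apart, and the part of these cell types in the changes of the 7 transcripts was not tested.

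To ask how the mature regions differed, P21 cortex was compared with P21 midbrain over 16 libraries. Of the 7 transcripts 6 were called, 5 higher and 1 lower in cortex. Over all 16345 genes tested 75.6% were called, 37.7% higher and 37.9% lower in cortex. A difference of at least 2-fold was reached by 1 of 7 and by 15.4% of all genes, and the median absolute log2 fold change was 0.52 over the 7 and 0.33 over all genes.

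*Gabra5* showed the largest regional difference. The cortex libraries held 83.0, 79.0, 83.5 and 79.0 TPM in *Nova1* wt/wt and 82.8, 75.7, 84.3 and 78.6 TPM in *Nova1* hu/hu mice, while no P21 midbrain library exceeded 36.6 TPM. It was 2.62-fold higher in cortex (log2 fold change 1.39, SE 0.039, adjusted p = 3.99e-20).

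*Gabra2* was the next. Its cortex values of 41.4, 37.2, 40.1 and 37.6 TPM in *Nova1* wt/wt and 39.6, 37.5, 35.9 and 42.4 TPM in *Nova1* hu/hu libraries lay wholly above the midbrain range. The difference was 1.79-fold (log2 fold change 0.84, SE 0.039, adjusted p = 1.16e-15). *Gabra4* (44.8 to 50.4 TPM in cortex; log2 fold change 0.49, SE 0.044) and *Gabra3* (68.8 to 82.0 TPM; 0.25, SE 0.036) were also higher in cortex. *Gabra4* did not overlap between the regions, whereas *Gabra3* did. The 4 α genes thus stood in the same direction but over a range of sizes, and their summed TPM was 242 ± 8.39 in cortex and 157 ± 6.06 in P21 midbrain (SD, n = 8 each).

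The β genes separated. *Gabrb1* was at 56.0 to 64.5 TPM in cortex, above every midbrain library, with a log2 fold change of 0.52 (SE 0.051, adjusted p = 1.50e-09). *Gabrb2* was at 59.1 to 69.1 TPM in cortex, which overlapped its midbrain range of 61.6 to 77.2 TPM. Its log2 fold change was 0.010 (SE 0.046, 95% confidence interval −0.085 to 0.11, adjusted p = 0.852), so a difference of more than 1.08-fold lay outside the interval, and the sign turned with library totals (−0.0064) and on log2(TPM + 1) (−0.064), uncalled in both. The ratio of *Gabrb2* to *Gabrb1* was 1.25 ± 0.151 in E18.5 midbrain (SD, n = 12), 1.57 ± 0.142 in P21 midbrain (n = 8) and 1.09 ± 0.106 in cortex (n = 8).

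*Gabrg1* was the only one of the 7 called lower in cortex. It was at 9.22, 9.04, 9.75 and 9.23 TPM in *Nova1* wt/wt and 8.52, 8.87, 10.1 and 9.81 TPM in *Nova1* hu/hu cortex, all below the lowest midbrain library of 15.6 TPM. The log2 fold change was −0.88 (SE 0.046, adjusted p = 1.26e-14). Age and region share the P21 midbrain libraries, so these differences are not independent of those with age.

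Cell type markers differed between the regions as well. Summed TPM of the oligodendrocyte markers was 4183 to 4726 in cortex against 14584 to 16726 in P21 midbrain, that of the markers of glutamate neurons 1700 to 1886 against 326 to 362, and that of the markers of GABA neurons 299 to 327 against 354 to 379. Markers of hippocampus and striatum, tissues that adjoin the cortex, summed to 160 to 186 TPM in cortex and 27.2 to 31.2 TPM in midbrain. Their part in the regional differences was not tested.

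**Figure D3:**
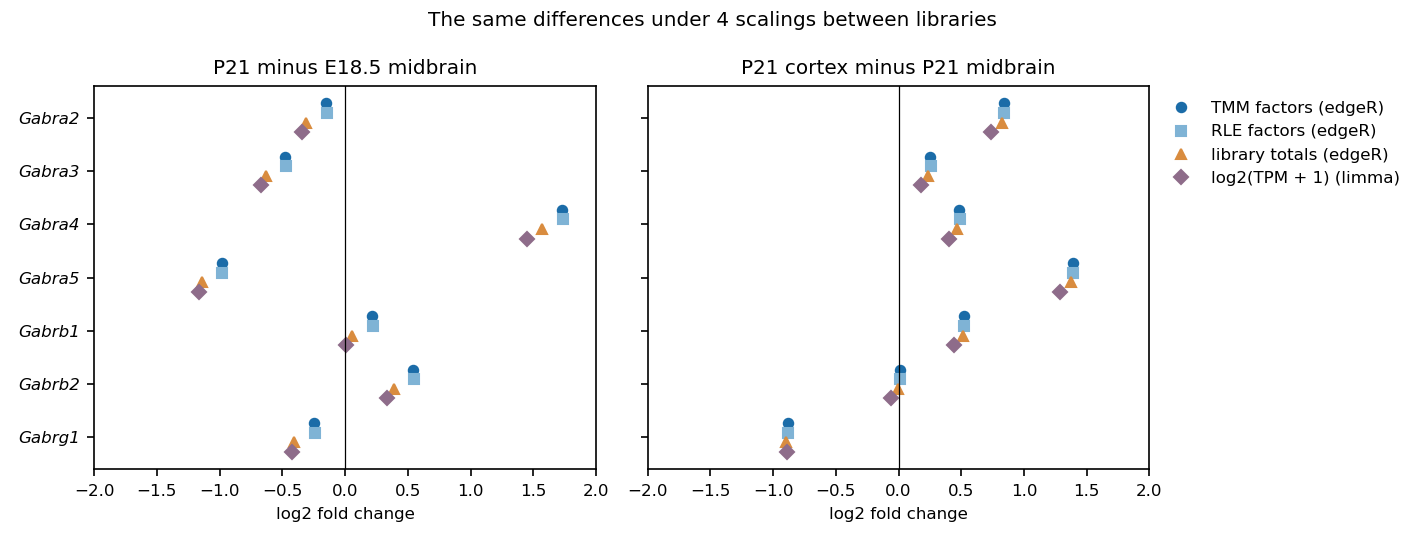
log2 fold changes of the 7 transcripts with age (left) and between regions (right) under TMM factors, RLE factors, library totals and log2(TPM + 1) values. With age the last 2 scalings lie to the left of the first 2 for each gene, and *Gabrb1* comes down from 0.21 to 0.010; between regions *Gabrb2* lies between −0.064 and 0.011 under the 4.

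The composition of the set was then taken within each library, as the percentage of the summed TPM of the 7, which does not depend on scaling between libraries. This sum was 344 ± 19.1 TPM in E18.5 midbrain (SD, n = 12), 287 ± 14.1 in P21 midbrain (n = 8) and 376 ± 10.9 in cortex (n = 8). The 7 held 55.1% ± 0.903 of the TPM of all 19 subunit rows at E18.5, 40.6% ± 1.14 in P21 midbrain and 42.5% ± 0.508 in cortex. Shares sum to 100, so that a rise of some entails a fall of others, and 35 share comparisons were made. No such shares were taken for genes outside the 7, so how common separation without overlap is was not tested. By level, 85.6% of all genes were called with age and 75.6% between regions.

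With age *Gabra4* went from 3.63% ± 0.245 to 12.5% ± 0.759 of the set and *Gabrb2* from 15.6% ± 0.705 to 23.7% ± 1.07. *Gabra5* went from 21.5% ± 0.790 to 11.3% ± 0.736 and *Gabra3* from 30.8% ± 1.03 to 23.0% ± 0.881. For each of these 4 the ages did not overlap, and the two-sided exact permutation test gave p = 7.94e-06, the smallest that 125970 arrangements allow (6.95e-05 adjusted over the 35). The sizes hold for shares of these 7 only, which held 55.1% of all 19 rows at E18.5 and 40.6% at P21. With another denominator, counts or a left-out library, the *Gabrb2* rise ranged from 1.002 to 10.3 points and the *Gabra4* rise from 3.07 to 9.66. The *Gabra5* difference ranged from −10.4 to −7.01 points and that of *Gabra3* from −9.08 to −7.57. All 4 kept their direction and stayed past the threshold. *Gabrb1* went from 12.6% ± 1.0005 to 15.2% ± 1.11 (exact p = 8.73e-05, adjusted 0.000544) and *Gabrg1* from 7.21% ± 0.550 to 6.31% ± 0.374 (exact p = 0.000849, adjusted 0.00270), both with overlap. *Gabra2* was at 8.58% ± 0.644 and 8.01% ± 0.340, a difference that did not pass after adjustment (exact p = 0.0358, adjusted 0.104). It did pass as a share of all 19 rows (−1.48 points, adjusted exact p = 5.56e-05), by counts in place of TPM (−1.23, 0.000185) and without E18.5 *Nova1* wt/wt number 3 (−0.65, 0.0494). The direction for *Gabrb1* turned when the share was taken of all 19 rows, where it was lower by 0.79 percentage points at P21 (adjusted exact p = 0.0280).

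Between the regions *Gabra5* made up 21.5% ± 0.537 of the set in cortex against 11.3% ± 0.736 in midbrain, and *Gabra2* 10.4% ± 0.580 against 8.01% ± 0.340. *Gabrb2* at 17.3% ± 0.656, *Gabra3* at 19.9% ± 0.654 and *Gabrg1* at 2.48% ± 0.118 took smaller shares in cortex than their 23.7%, 23.0% and 6.31% in midbrain. None of these 5 overlapped between the regions (exact p = 0.000155 each, the smallest possible with 12870 arrangements, adjusted 0.000544). *Gabra3* was therefore higher in cortex as a level and lower as a share of summed TPM, but by counts its share differed by only −0.26 points against −3.13 (adjusted exact p = 0.795). *Gabra4* at 12.7% ± 0.292 and *Gabrb1* at 15.9% ± 1.04 overlapped their midbrain shares (exact p = 0.566 and 0.219). The *Gabra4* share did pass with all 19 rows as denominator (0.32 points higher in cortex, adjusted exact p = 0.0397), and both passed by counts (2.28 and 1.04 points).

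**Figure D4:**
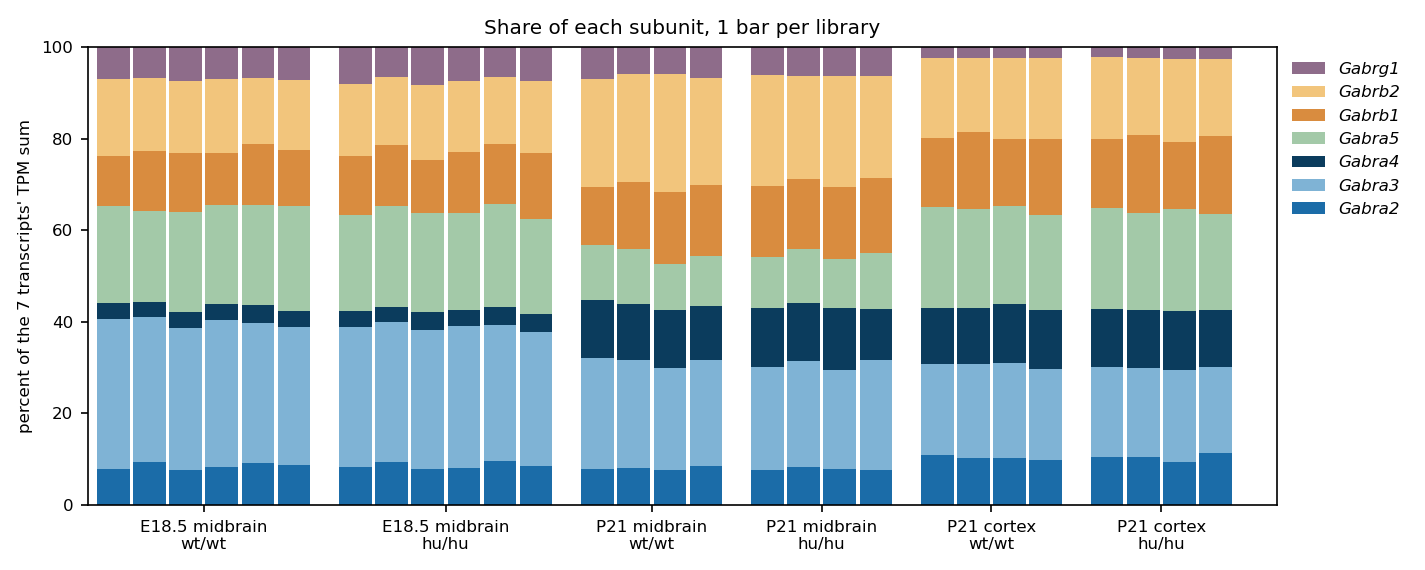
Percentage of the summed TPM of the 7 transcripts held by each (vertical axis, stacked to 100), with 1 bar per library in order of replicate number and libraries grouped by tissue, age and genotype. The *Gabra4* band widens from 3.63% to 12.5% between the E18.5 and P21 midbrain bars, the *Gabra5* band is 21.5% in cortex against 11.3% in P21 midbrain, and *Gabra3* in E18.5 midbrain is at 30.2% in *Nova1* hu/hu and 31.4% in *Nova1* wt/wt bars.

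Between the genotypes no difference in the 7 transcripts passed the threshold. The test called 0 of 7 in each of the 3 tissues, and 0 of 15540 genes in all at E18.5, 0 of 15972 in midbrain at P21 and 0 of 15767 in cortex (0%, 0% and 0%). At an unadjusted p under 0.05 there were 201, 426 and 450 genes and none of the 7. DESeq2 called 0, 1 and 0 genes, and again none of the 7. With the replicate number added to the edgeR fit 0, 4 and 0 genes were called, also none of the 7.

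*Gabrb1* in P21 midbrain had the largest genotype estimate. Its *Nova1* hu/hu libraries averaged 45.9 ± 3.47 TPM (SD, n = 4) and its *Nova1* wt/wt libraries 41.5 ± 4.83 (SD, n = 4), with overlapping values. The log2 fold change was 0.14 (SE 0.079, 95% confidence interval −0.024 to 0.31, edgeR adjusted p = 1). It ranged from 0.087 without *Nova1* wt/wt number 1 to 0.21 without *Nova1* wt/wt number 3, and was 0.13 without the libraries with *Cbln3* above 5 TPM. In E18.5 midbrain *Gabrb1* averaged 44.7 ± 4.94 TPM in *Nova1* hu/hu and 41.9 ± 1.91 in *Nova1* wt/wt mice (SD, n = 6 each; log2 fold change 0.093, 95% confidence interval −0.081 to 0.27). In cortex the averages were 59.6 ± 3.79 and 59.7 ± 2.69 (SD, n = 4 each; 0.00056, −0.11 to 0.12).

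*Gabra3* in cortex was the next in size among the P21 estimates, at 72.5 ± 3.25 TPM in *Nova1* hu/hu and 76.9 ± 3.38 in *Nova1* wt/wt mice (SD, n = 4 each; log2 fold change −0.081, 95% confidence interval −0.18 to 0.020), and −0.041 without *Nova1* wt/wt number 3. The remaining estimates lay between −0.059 and 0.071. Over all 21 genotype intervals the lower ends reached −0.21 and the upper ends 0.31, which is 1.24-fold.

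All 7 estimates in P21 midbrain were above 0. This rested on scaling and on the libraries used: 4 of the 7 were below 0 with library totals, and 4 of the 7 without the 2 libraries with high *Cbln3*. Leaving out 1 library at a time left 3 to 7 above 0, with 3 when *Nova1* wt/wt number 2 was left out. In E18.5 midbrain 4 were above and 3 below 0 (5 and 2 with library totals), and in cortex 2 above and 5 below (0 and 7).

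Whether the genotype difference itself changed with age or region was tested as an interaction, and 0 of 7 and 0 of all genes were called in both (0% of 16330 and 0% of 16345). At an unadjusted p under 0.05 there were 303 and 373 genes, none of them among the 7. The largest interaction was again that of *Gabrb1* by region (−0.15, SE 0.099, 95% confidence interval −0.35 to 0.058). The shares gave the same picture, with no genotype difference past the threshold in 21 comparisons. The smallest p was that of *Gabra3* in E18.5 midbrain, at 30.2% ± 0.688 in *Nova1* hu/hu and 31.4% ± 1.02 in *Nova1* wt/wt libraries (SD, n = 6 each; exact p = 0.0519, adjusted 0.140), lower in *Nova1* hu/hu in 6 of 6 same-numbered pairs. Its share was also lower in 3 of 4 pairs in P21 midbrain and 4 of 4 in cortex. An exact sign-flip permutation test over the pairs gave p = 0.0312 for *Gabra3* at E18.5, the smallest that 6 pairs allow, and 0.656 after adjustment over the 21 comparisons. With 4 pairs the smallest p is 0.125, and with 4 unpaired libraries against 4 it is 0.0286, so the P21 share tests could hardly pass.

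The proteins that assemble, move and anchor GABA-A receptors, and those that make, store, carry and degrade GABA or set the chloride gradient, were followed in a list of 36 genes. With age 25 of the 36 were called higher, 10 lower and 1 was not called, beside 42.4% of all genes called higher and 43.3% lower, and the median log2 fold change was 0.79 against −0.015 over all genes. *Trak2*, a motor adaptor that binds GABA-A receptors, rose most (log2 fold change 1.999, SE 0.035, adjusted p = 7.37e-26). *Abat*, the GABA transaminase, followed at 1.97, *Slc12a2*, the chloride importer NKCC1, at 1.90, and *Gabarapl1*, a GABARAP family member, at 1.79. The largest falls were those of *Slc6a13*, the GABA transporter GAT2 (−1.66), *Mdga1*, a neuroligin ligand (−1.46), *Shisa7*, an auxiliary subunit of the receptor (−1.44), and *Hap1*, which takes part in receptor recycling (−0.66).

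Between the regions 14 of the 36 were called higher in cortex, 19 lower and 3 were not called, beside 37.7% of all genes called higher and 37.9% lower, and the median log2 fold change was −0.079. *Shisa7* was highest in cortex relative to midbrain (log2 fold change 1.79, SE 0.040). *Plcl2* (1.102), which encodes a phospholipase C-like protein that binds the receptor's β subunits, and *Insyn1*, an inhibitory synaptic factor listed as 6030419C18Rik (0.73), were also higher there. *Slc6a11*, the mainly astrocytic GABA transporter GAT3, was lowest (−2.23, SE 0.024), followed by *Slc12a2* (−1.46), *Hap1* (−1.14) and *Plcl1* (−1.05). Between genotypes and in both interactions none of the 36 was called, although 1 of them had an unadjusted p under 0.05 in midbrain at each age and 0 in cortex.

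The 12 other subunit rows were counted only. Of the 10 that could be tested, 6 were called higher, 2 lower and 2 not with age, and 3 higher, 5 lower and 2 not in cortex. Over all genes 85.6% were called with age and 75.6% between regions, so 8 of 10 is near the background in both. None was called between genotypes.

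The genes with the most similar pattern were found by the root mean square difference of centred log2(TPM + 1) values over the 28 libraries, among 15539 other genes with a mean of at least 1 TPM. For *Gabra4* these were *Cacnb4* (0.095), *Gabarapl1* (0.10) and *Pcsk2* (0.11), against an SD of 0.84 for *Gabra4* itself. For *Gabra5* they were *Cnr1* (0.082), *Pgm2l1* (0.11) and *Gria2* (0.11), against an SD of 0.55. *Cnr1*, the cannabinoid receptor gene, averaged 60.1 TPM at E18.5, 26.2 in P21 midbrain and 66.6 in cortex, where *Gabra5* was at 74.0, 32.5 and 80.7.

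*Gabra3* was closest to *Wdr48* (0.057), *Ipo5* (0.062) and *Zhx1* (0.068), with an SD of 0.31. *Gabra2* was closest to *Spcs3* (0.081), *Arf5* (0.083) and *Ywhaz* (0.093), with an SD of 0.29. *Gabrg1* was closest to *Cfl2* (0.11), *Gprasp1* (0.11) and *Vwc2l* (0.11), with an SD of 0.56. The 2 β genes varied least, *Gabrb1* with an SD of 0.23 and nearest to *Ube2b* (0.11), *Arl6ip5* (0.13) and *Tmem14c* (0.13), and *Gabrb2* with an SD of 0.18 and nearest to *Rtn3* (0.087), *Snap47* (0.091) and *Rnf34* (0.096). Among the 7 themselves the closest pair, *Gabra2* and *Gabrb1*, differed by 0.18, which placed *Gabrb1* at rank 242 among the genes nearest to *Gabra2*. *Gabra4* was 0.70 from its nearest member, *Gabrb2*, at rank 3178. The libraries fall into 3 tissues, so that these values mostly describe 3 levels.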

How the data were processed

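Libraries were grouped by age, tissue and genotype as the labels give them, in 6 groups. The authors extracted RNA with Trizol and RNeasy columns, selected polyadenylated RNA with TruSeq kits, aligned paired-end reads to mm10 with OLego and counted them with Quantas; the gene annotation and use of strand are not given in the sources used here. Per library the authors deposited expected counts, exon lengths and RPKM values for 23038 genes. RPKM as deposited could be recomputed from the other columns and entered no test. Of the counts of the 7 subunits 23 values were not whole; counts were rounded for tests and left unrounded for TPM.

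Tests used R 4.3.3, edgeR 4.0.16 (glmQLFit and glmQLFTest, TMM factors, filterByExpr), limma 3.58.1 and DESeq2 1.42.0, fitted on all genes passing the filter. Calls needed an unadjusted p under 0.05 together with a false discovery rate (Benjamini-Hochberg) under 0.1, the thresholds of the study, with age and region fits adjusted for genotype and genotype fits made within a tissue. All tests were two-sided. The fits were run on simulated counts in which a small part of the genes changed by 2-fold, without pairing of libraries. That does not check scaling where most genes change, as with age and region. Shares were compared with exact permutation tests at an adjusted p under 0.05. All 7 subunits were named. Of the 36 pathway genes the 4 largest rises and falls among those called were named (1 of them is not reported here), and for each subunit the 3 genes of most similar pattern. The members and lists were chosen with earlier results of these data known.

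Replicate numbers come from the labels, which do not say what they mark. Deviations of same-numbered libraries from their group means correlated between genotypes at 0.171 to 0.391 (E18.5), 0.201 to 0.235 (P21, midbrain) and 0.170 to 0.246 (P21, cortex), against medians of −0.073, −0.094 and −0.11 for other pairs, so the numbers pair the genotypes. At E18.5 the highest other pair, at 0.188, was above the lowest same-numbered pair. Between regions same-numbered libraries correlated negatively (−0.20 to −0.10), against medians of 0.084 in *Nova1* wt/wt and 0.11 in *Nova1* hu/hu for other pairs. Between ages they correlated at −0.15 to 0.15, against medians of −0.051 and −0.075. The source of the negative values was not tested. The labels do not say that libraries of a group are separate animals, but the study calls its molecular replicates biological. It also states that males and females were paired in equal number for the transcriptome data. Sex entered no fit. The p-values weigh group differences against the spread between these samples. In the main genotype fits that spread includes differences between replicate numbers. With 18550922 to 45134998 counts per library, each subunit had at least 444 counts per library.

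Alternatives were RLE factors, fits with the filter dropped or set to 10 counts in all libraries, DESeq2, an adjusted p under 0.05, all 28 libraries in one fit, the replicate block, each genotype alone, each library left out, and for shares another denominator and counts. Library totals, limma on log2(TPM + 1), leaving out the 2 P21 midbrain libraries with *Cbln3* above 5 TPM, and a paired test of the genotype shares, were added after seeing the data.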

Additional observations from a re-analysis of the deposited data

Results flagged for a closer look

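Over 42 groups of 4 to 6 libraries, 3 values stood apart from the rest of their group by a gap larger than the 95% limit of Dixon's test, where chance alone gives about 1 in 20. *Gabra2* was at 25.7 TPM in E18.5 *Nova1* hu/hu midbrain number 3, with the other 5 libraries at 29.8 to 31.4 TPM. *Gabra3* was at 82.0 TPM in P21 *Nova1* wt/wt cortex number 3, with the others at 74.9 to 75.6 TPM. *Gabra5* was at 36.6 TPM in P21 *Nova1* hu/hu midbrain number 4, with the others at 32.1 to 32.2 TPM. No call for these 3 genes changed when the respective library was left out.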

How the results depend on the processing

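Under every alternative the number of the 7 subunits called stayed at 6 or 7 with age, at 6 between regions and at 0 in the genotype and interaction tests, and the number of shares past the threshold at 6 or 7, 5 or 6 and 0. Of 1684 alternative values for single genes 3 lost their call: *Gabrb1* with age under library totals and on log2(TPM + 1), and *Gabra2* with age in *Nova1* hu/hu libraries alone, as given in the report; with *Nova1* wt/wt libraries alone all 7 were called. For these and the smallest effects the range over left-out libraries was 0.18 to 0.25 for *Gabrb1* and −0.17 to −0.14 for *Gabra2*. With the replicate block, 7, 6 and 0 subunits were called, the *Gabrb1* estimate between genotypes in P21 midbrain was 0.15 (adjusted p = 0.999), and 4 genes of 15972 were called there in place of 0, none of them a subunit; the block changed no other call for the 7. Between ages and regions the libraries share only a number, and the block left 7 and 6 called. The *Gabrb1* share with age reversed from 2.57 to −0.79 percentage points with all 19 subunit rows as denominator and was 0.19 (adjusted exact p = 0.668) by counts. By counts the *Gabra3* share no longer differed between regions past the threshold (−0.26, adjusted exact p = 0.795), and the shares of *Gabra4* and *Gabrb1* then did (2.28 and 1.04); that of *Gabra4* also did over all 19 rows (0.32). The *Gabra2* share with age passed in 3 alternatives (−1.48, −1.23 and −0.65). Counts, unlike TPM, are not divided by exon length, and the causes of these changes were not tested. With 4 to 6 libraries per group, the genotype intervals given set the precision.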
